A study of Canis lupus familiaris with 37 samples.

Results

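The genes described here are 19 canine Ensembl genes that the study listed under the KEGG pathway DNA replication, out of 32704 genes in the count files. All 19 passed the filter on low counts, which kept 15162 genes. They were chosen by the study from genes whose expression differed from that of non-neoplastic lymph nodes in B-cell lymphomas or in the lines CLBL-1, CLBL-1M and GL-1. Their differences from the controls are therefore given as a description: no p-value of a member is printed for them, and the counts of members past a threshold stand beside the share of all genes past it and test nothing. Counts at an unadjusted p, by DESeq2 and in most alternative fits have no such share beside them in any comparison. They are a description only. What the rule did not use was the order of the lymphomas within their group and the differences among groups outside the choice, and these were tested.

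DNA replication starts at origins, where a ring-shaped helicase is loaded onto DNA in G1 and switched on in S phase. Polymerases then copy both strands from primers, held to the DNA by a sliding clamp that a clamp loader places, and nucleases and a ligase join the fragments of the lagging strand. Cells outside the cycle keep few of these proteins, so the transcripts are widely used as a mark of proliferation. Dividing B cells in the germinal centres of a lymph node use the same machinery as lymphoma cells. Ensembl identifiers in the counts came without gene symbols. The study describes a supplementary list with symbols for its differentially expressed genes, but symbols were not used here. Each gene is therefore named by its identifier, and roles are given only as the study's own functional lists state them. Of the 19 genes, 7 stood under DNA replication initiation (ENSCAFG00000001709, ENSCAFG00000002196, ENSCAFG00000004052, ENSCAFG00000005143, ENSCAFG00000006598, ENSCAFG00000013677 and ENSCAFG00000014748). ENSCAFG00000006215 stood under the transition from G1 to S phase, and ENSCAFG00000013710 under the DNA integrity checkpoint, which halts the cycle at damaged DNA. ENSCAFG00000002937, ENSCAFG00000004046, ENSCAFG00000006030, ENSCAFG00000006271, ENSCAFG00000017159 and ENSCAFG00000030542 stood under more general DNA replication terms. ENSCAFG00000011635, ENSCAFG00000013689, ENSCAFG00000019249 and ENSCAFG00000030380 stood under the pathway alone in the lists used here, which were shortened, so that absence from a term carries no meaning.

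Poly-A RNA of 37 dog samples was sequenced. There were 4 controls, which were lymph nodes without neoplasia, 12 B-cell lymphomas, 3 intestinal lymphomas and 1 T-cell lymphoma that the study joined as probable T-cell lymphomas, and 17 samples of 5 cell lines. The study called the phenotype of the 3 intestinal lymphomas uncertain and joined them to the T-cell lymphoma because their expression was similar. The lines were CLBL-1 (5 samples, from a canine diffuse large B-cell lymphoma), CLBL-1M (5, re-established from a tumour that CLBL-1 cells formed in a mouse), GL-1 (1, of B-cell origin), and OSW (4) and CL-1 (2), both of T-cell origin. The labels name no engineered allele and no treatment. Each lymphoma came from another dog, whereas nothing says that the samples of a line were separate cultures, so that their spread may be technical. The SEs and p-values come from 1 model that shares its estimate of spread over all 37 samples. They therefore do not measure the spread between cultures of a line, and GL-1, with 1 sample, has no spread of its own. The titles, the names of the data and the flow cytometry field disagree on which samples are CLBL-1 or CLBL-1M and on several other samples, and titles were used throughout. Cell type markers were not checked, as no gene symbols were used. Between 1962722 and 4863730 reads per sample fell on genes (median 2942360), so that 3 counts correspond to 0.617 to 1.53 CPM (counts scaled to a common library size after TMM normalization). Reads assigned to several genes made up 0.0977 to 0.229% of all reads in the 16 lymphomas and controls 1 to 3, and 0.363 to 0.549% in the 17 cell line samples. Control 4, whose source name is that of a T-cell line, stood with the lines at 0.476%.

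Most of the 19 genes had higher levels than in the controls, 19 in GL-1 and CL-1 and 18 in each of the other 5 groups, and 5 to 18 of them were called higher. In B-cell lymphomas 8 of 19 members were called higher, at an adjusted p of 1e-05 over all genes tested, where 2.38% of the 15162 genes were called higher. None of the 19 was called lower there (3.15% of all genes), 1 was lower at an unadjusted p under 0.05, and DESeq2 called 9 members in all. In the intestinal and T-cell lymphomas, which took no part in the choice but share its controls, 9 were called higher beside 1.33% of all genes. CLBL-1 had 15 higher (background 6.91%) and 1 lower (9.73%), which is ENSCAFG00000011635. In CLBL-1M 18 were called higher (6.82%), and in the single GL-1 sample 5 (0.547%). OSW had 15 (5.61%) and CL-1 11 (4.54%). The comparisons share the 4 controls, so these counts are not independent of each other. Without control 4, edgeR called 3 members in B-cell lymphomas, 4 in intestinal and T-cell lymphomas and 3 in GL-1. For CLBL-1 and CLBL-1M this left 10 and 12 calls, and for OSW and CL-1 6 and 8 calls. Without control 2 the count was 3 in B-cell lymphomas, 3 in GL-1 and 8 in OSW, and without either CL-1 sample it was 5 or 4 in CL-1. It was 5 in B-cell lymphomas without control 1, 5 in intestinal and T-cell lymphomas without control 3, and 9 in OSW without OSW replicate 1 or 3.

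The size of the differences was similar among tumours and larger in the lines. The median log2 fold change of the members was 1.38 in B-cell lymphomas, where that of all genes was 0.01, and 1.51 in intestinal and T-cell lymphomas, where that of all genes was 0.09. It was 1.89 in both CLBL lines, 1.77 for GL-1, 1.71 for OSW and 2.10 for CL-1, with medians of all genes between −0.23 and −0.08. Under DESeq2's size factors the median of all genes moved by −0.22 to −0.16 in these comparisons, and the fold changes of ENSCAFG00000017159 in B-cell lymphomas (0.06 to −0.15) and of ENSCAFG00000011635 in intestinal and T-cell lymphomas (0.15 to −0.03) turned negative. In bulk RNA, a higher share of dividing cells and more RNA of these genes per cell cannot be told apart.

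Sample by sample, the controls lay below the tumours for most members. In B-cell lymphomas 14 of 19 members were above all 4 controls in each of the 12 samples, as were 7.66% of all genes. The corresponding counts were 12 members in intestinal and T-cell lymphomas (12.3% of all genes), 18 in the 10 CLBL-1 and CLBL-1M samples (21.7%), 17 in OSW (28% of all genes) and 19 in CL-1 (31.6%). In all 17 cell line samples together 17 members lay above all controls, as did 11.2% of all genes.

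**Figure D1:**
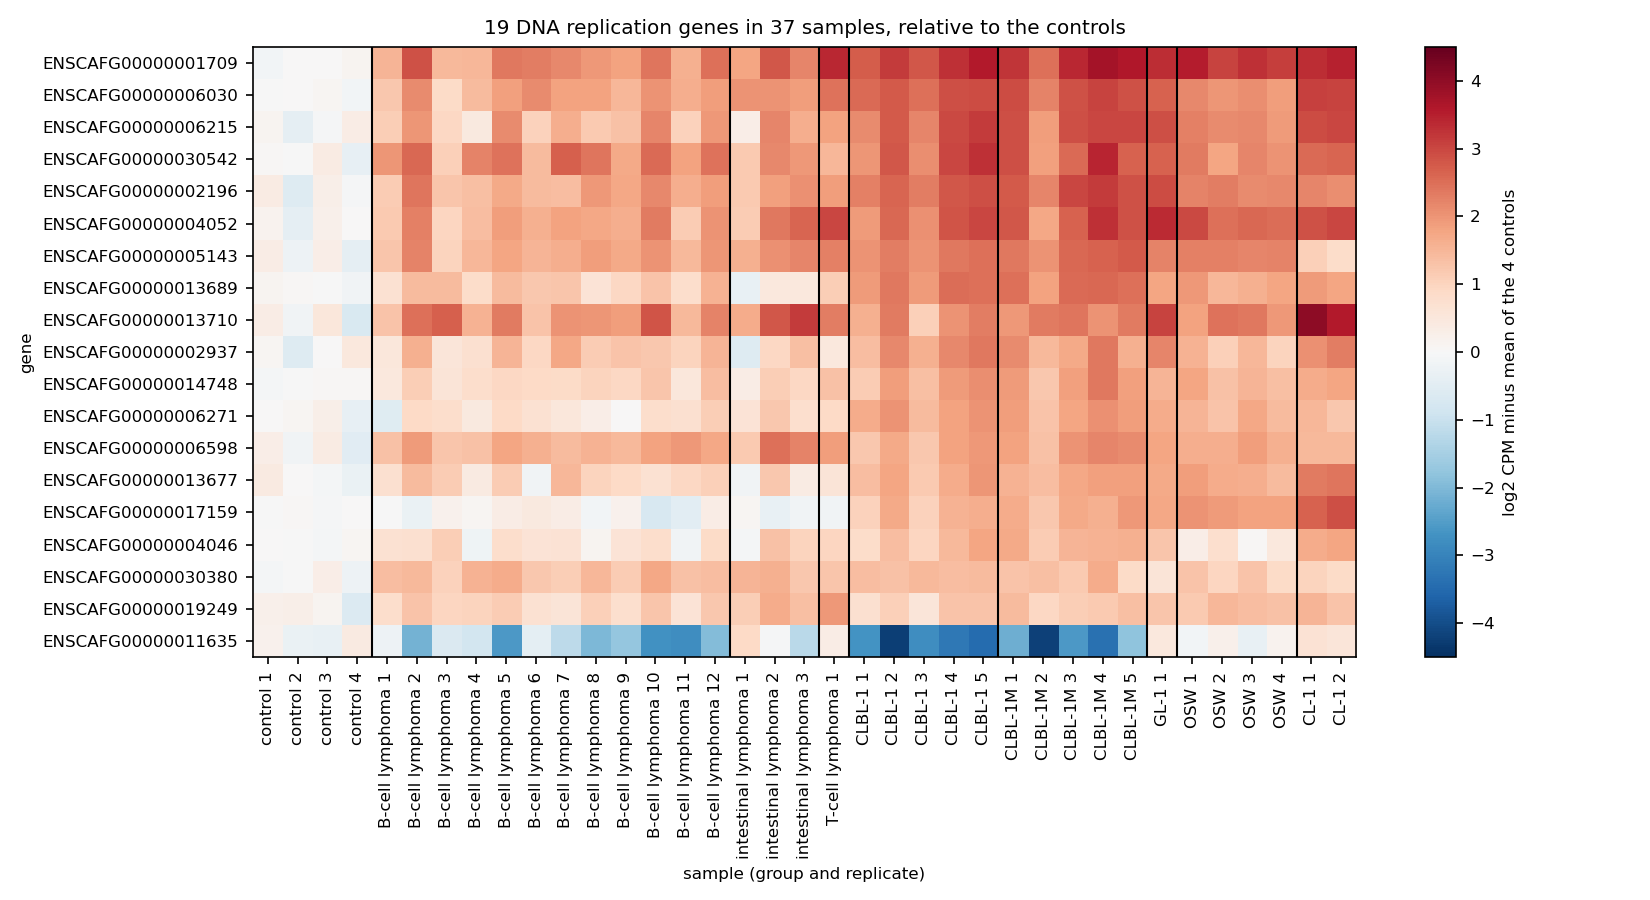
Each row is 1 of the 19 genes, ordered by its difference between the CLBL lines and the controls, and each column is 1 of the 37 samples, with vertical lines between groups. Colour gives log2 CPM minus the mean of the 4 controls, red for higher and blue for lower. ENSCAFG00000011635, in the last row, is blue in the CLBL lines (lowest fold change of the 19, −2.98), and ENSCAFG00000017159 is near white in all lymphomas and red in all lines.

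Among the genes of replication initiation, ENSCAFG00000001709 differed most from the controls. It had 22.9, 25.4, 25.3 and 27.4 CPM in controls 1 to 4, and 69.1 to 187 CPM in the B-cell lymphomas (median 106). The intestinal lymphomas had 87.4, 177 and 117 CPM and the T-cell lymphoma 263 CPM. No tumour sample came near the controls, and the T-cell lymphoma lay among the lines. CLBL-1 had 223 ± 52.9 CPM (SD, n = 5), CLBL-1M 259 ± 77.4 (n = 5), GL-1 255 (n = 1), CL-1 267 ± 18.2 (n = 2) and OSW 241 ± 36.3 (n = 4). The log2 fold changes from the controls were 2.11 (SE 0.284) in B-cell lymphomas, 2.67 (SE 0.322) in intestinal and T-cell lymphomas and 3.25 (SE 0.306) over both CLBL lines. The 5 lines had means that differed by less than 1 SD of the CLBL-1M samples.

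ENSCAFG00000004052, also under initiation and the cell cycle, had 51.3, 34.4, 53.1 and 46.8 CPM in controls 1 to 4. In B-cell lymphomas it ranged from 88.9 to 231 CPM (median 147), in the intestinal lymphomas it had 102, 238 and 285 CPM, and in the T-cell lymphoma 368 CPM. GL-1 had the highest single value, 467 CPM, against 288 ± 94.1 in the 10 CLBL samples (SD), 352 ± 28.2 in CL-1 (n = 2) and 288 ± 50.9 in OSW (n = 4). ENSCAFG00000005143 and ENSCAFG00000002196 had log2 fold changes of 1.67 and 1.68 in B-cell lymphomas and of 2.35 and 2.67 over both CLBL lines. ENSCAFG00000006598 had 1.57 in B-cell lymphomas and 1.72 in the CLBL lines, and ENSCAFG00000014748 had 0.92, the smallest of the 7 in B-cell lymphomas, and 1.81. ENSCAFG00000013677 had 0.94 in B-cell lymphomas (SE 0.228) and 1.64 in the CLBL lines, and its lowest B-cell lymphoma, at 24.0 CPM, lay within the controls' range of 21.4 to 34.7 CPM.

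Of the other members, ENSCAFG00000030542 had the largest log2 fold change in B-cell lymphomas, 2.17 (SE 0.305). ENSCAFG00000013710, the checkpoint gene, followed with 2.03 there (SE 0.321) and had the largest value of any member in CL-1, 3.75 (SE 0.406). It was low in the lymph nodes, with 8.47, 5.98, 9.76 and 4.12 CPM in controls 1 to 4, against 111 and 81.4 CPM in the CL-1 samples. ENSCAFG00000006030 had 1.73 in B-cell lymphomas and 2.78 in the CLBL lines, and ENSCAFG00000006215, the gene under the G1 to S transition, 1.48 and 2.73. ENSCAFG00000002937 and ENSCAFG00000013689 had 1.15 and 1.16 in B-cell lymphomas and 1.89 and 2.35 in the CLBL lines. ENSCAFG00000006271 and ENSCAFG00000004046 had the smallest positive values that exceeded 0.5 in B-cell lymphomas, 0.59 and 0.60, and had 1.80 and 1.43 in the CLBL lines.

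ENSCAFG00000030380 had a log2 fold change of 1.38 in B-cell lymphomas, in intestinal and T-cell lymphomas and in CLBL-1 alike, with means of 360 ± 55.3 CPM (SD, n = 12), 361 ± 48.6 (n = 4) and 359 ± 12.1 (n = 5). It had 1.28 in CLBL-1M, 1.10 in OSW, 0.92 in CL-1 and 0.55 in GL-1. Its lowest value among the tumours was in GL-1, 203 CPM, above the 117 to 169 CPM of the controls. ENSCAFG00000019249 had 0.93 in B-cell lymphomas and 1.08 over both CLBL lines, the smallest positive value of the 19 there. Of 16 other genes that the study placed under DNA replication terms, 9 were called over both CLBL lines, 7 higher and 2 lower, where 8.96% of all genes were called higher and 17.4% lower. Of the genes in this second list that were not called, 3 had values near or above that of ENSCAFG00000019249, at 1.06, 1.40 and 1.42.

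ENSCAFG00000011635 was the only member with a lower level in the CLBL lines than in the controls. Controls 1 to 4 had 26.7, 18.9, 18.3 and 30.7 CPM. CLBL-1 samples 1 to 5 had 3.44, 1.06, 3.20, 2.31 and 1.96 CPM, and CLBL-1M samples 1 to 5 had 4.90, 1.11, 3.70, 2.08 and 6.43 CPM. All 10 lay below all controls, as they did for 28.6% of all genes, and rested on 2 to 20 reads each, so that single values carry a large counting error. The log2 fold change was −2.98 (SE 0.408) over both lines, −3.30 (SE 0.524) in CLBL-1 and −2.65 (SE 0.499) in CLBL-1M. Over both lines it was called in all fits but the one against control 4 alone. In CLBL-1M edgeR did not call it and DESeq2 did. In CLBL-1 edgeR called it, and the call was lost without CLBL-1 replicate 2, 3, 4 or 5, without control 1 or 4, without the 3 CLBL samples with the fewest reads, with the CLBL names exchanged and against control 4 alone. Over the alternatives run, the value for both lines stayed between −3.35 and −2.88, and without the 3 CLBL samples with the fewest reads it was −3.21.

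The same gene was not low in the other lines. GL-1 had 32.3 CPM, OSW samples 1 to 4 had 21.0, 27.2, 18.1 and 26.0 CPM, and both CL-1 samples had 36.0 and 34.2 CPM. OSW overlapped the controls, and GL-1 and CL-1 lay just above them. Against the CLBL lines, whose samples helped to choose the list, OSW was higher by a log2 fold change of 2.94 (SE 0.406). This gene was the single member of 19 called in that comparison, beside 9.16% of all genes called higher and 13.3% in either direction.

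In the lymphomas ENSCAFG00000011635 took scattered values. The 12 B-cell lymphomas ranged from 3.19 CPM in replicate 11 to 19.5 CPM in replicate 1 (median 6.28), with a log2 fold change of −1.39 (SE 0.383) from the controls. Only replicate 1 reached into the controls' range, and the median lay within the range of the CLBL samples. The intestinal lymphomas had 43.4, 22.2 and 9.78 CPM and the T-cell lymphoma 29.4 CPM, so that 1 of these 4 lay below all controls and 1 above them.

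ENSCAFG00000017159, listed under DNA-dependent DNA replication, separated lines from tissue. The share of all genes that do so was not computed. In all 17 line samples 11.2% of all genes, and 17 of the 19 members, lay above all controls. Controls 1 to 4 had 14.0, 14.5, 13.4 and 14.2 CPM, the B-cell lymphomas 8.34 to 19.1 CPM (median 15.4), the intestinal lymphomas 14.95, 11.1 and 12.5 CPM and the T-cell lymphoma 12.5 CPM. The lymphomas lay on both sides of the narrow range of the controls, with 7 of 12 B-cell lymphomas above and 4 below it and 1 of the 4 other lymphomas above and 3 below it. Their log2 fold changes were 0.06 (SE 0.180) in B-cell lymphomas and −0.13 (SE 0.221) in intestinal and T-cell lymphomas. The first of these was −0.15 under DESeq2's size factors. Every line sample was higher: CLBL-1 had 28.8 to 46.1 CPM, CLBL-1M 32.6 to 54.6, GL-1 47.0, OSW 49.0 to 57.1 and CL-1 88.5 and 106 CPM. The log2 fold changes from the controls were 1.55 (SE 0.195) for the CLBL lines, 1.74 (SE 0.304) for GL-1, 1.89 (SE 0.220) for OSW and 2.79 (SE 0.249) for CL-1.

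**Figure D2:**
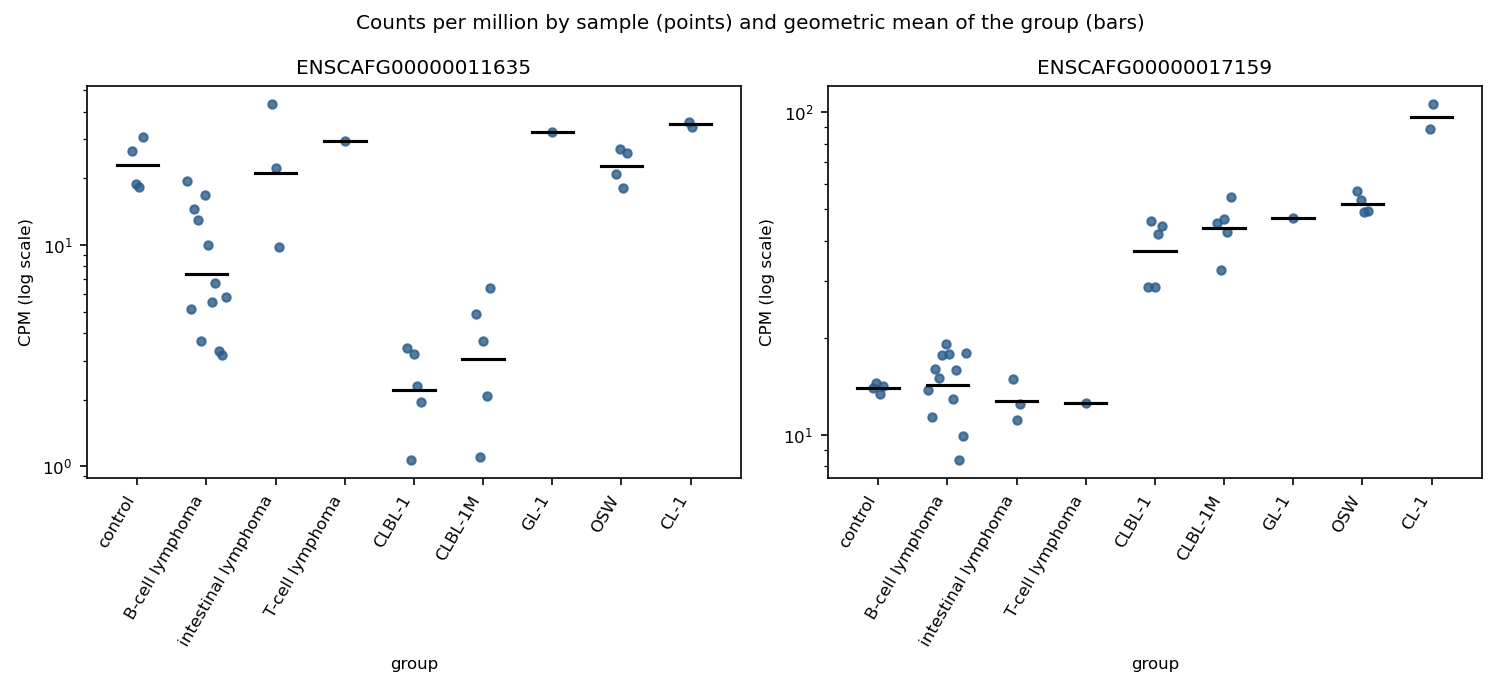
CPM of ENSCAFG00000011635 (left) and ENSCAFG00000017159 (right) on log axes, 1 point per sample and a bar at the geometric mean of each of 9 groups. On the left the CLBL samples lie at 1.06 to 6.43 CPM and the controls at 18.3 to 30.7 CPM, and on the right every cell line sample lies at or above 28.8 CPM and every tissue sample at or below 19.1 CPM.

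The comparison of the 4 intestinal and T-cell lymphomas with the lines OSW and CL-1 holds no sample on which the list was chosen. By the study's account 1 of these 4 was typed as T-cell by flow cytometry, and the 3 intestinal ones had an uncertain phenotype. All 4 lymphomas are tissue and all 6 line samples are cultures. The share of reads on several genes also splits them, at most 0.229% in the lymphomas and at least 0.363% in the lines. What lies behind a difference between them was not tested. At an adjusted p of 1e-05 (edgeR's quasi-likelihood test, Benjamini-Hochberg over 15162 genes) 1 member was called lower in the lymphomas and none higher. Of all genes, 0.943% were called lower, 5.43% higher and 6.38% in either direction. In the higher direction 3 members had an unadjusted p under 0.05, and DESeq2 called 3 lower and none higher. The member that edgeR called was ENSCAFG00000017159, with a log2 fold change of −2.47 (SE 0.215, edgeR adjusted p = 1.41e-10). Its 4 lymphomas, at 11.1 to 14.95 CPM, did not overlap the 6 line samples. Without intestinal lymphoma 2 or without the T-cell lymphoma 2 members were called. With only the compared samples in the fit the adjusted p was 4.95e-05 at nearly the same fold change (−2.50). Over all alternatives run for it, the fold change stayed between −2.58 and −2.41.

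At the looser adjusted p of 0.05, 7 members were lower and 1 higher in the lymphomas, beside 14.6% of all genes lower and 33.3% higher. In either direction 8 members passed, beside 48% of all genes. ENSCAFG00000013677, of replication initiation, had 23.7, 61.1 and 34.2 CPM in the intestinal lymphomas and 39.3 CPM in the T-cell lymphoma, against 98.4, 84.98, 81.9 and 70.8 CPM in OSW and 135 and 142 CPM in CL-1. The groups did not overlap, and the log2 difference was −1.45 (SE 0.252, edgeR adjusted p = 2.38e-05). ENSCAFG00000013689 had 11.6, 20.8 and 20.5 CPM and 32.4 CPM in the same lymphomas, against 41.8 to 57.1 CPM in OSW and 56.5 and 50.6 CPM in CL-1. Here too the groups were apart, with a difference of −1.26 (SE 0.230, edgeR adjusted p = 4.53e-05). ENSCAFG00000002937 (−1.06), ENSCAFG00000006215 (−0.91), ENSCAFG00000014748 (−0.66) and ENSCAFG00000006271 (−0.55) were lower with edgeR adjusted p-values of 0.00388 to 0.048. ENSCAFG00000030380 was higher by 0.37 (SE 0.150, edgeR adjusted p = 0.0396).

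The other 11 members did not pass at 0.05. They included 5 of the 7 initiation genes, among them ENSCAFG00000001709 at −0.66 (SE 0.280) and ENSCAFG00000005143 at 0.45 (SE 0.194, edgeR adjusted p = 0.0517). The median over the 19 members was −0.44 and that over all genes 0.30. In all, 5 members lay lower in every one of the 4 lymphomas than in all 6 line samples, as did 8.01% of all genes. Intestinal lymphoma 1 had the lowest value of the 4 lymphomas in 15 of the 18 members other than ENSCAFG00000011635, and the highest value of ENSCAFG00000011635.

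OSW and CL-1, both of T-cell origin, were compared with each other. No member was called at 1e-05 (edgeR, background 4.08%), 8 had an unadjusted p under 0.05, and DESeq2 called 1, the last 2 counts without a share of all genes. At 0.05, 4 members were lower (13.7% of all genes) and 1 higher in OSW (17.1%). In either direction 5 of the 19 passed beside 30.8% of all genes, so members did not pass more often than genes in general. ENSCAFG00000005143 had 354, 355, 344 and 348 CPM in OSW and 157 and 131 CPM in CL-1, a log2 difference of 1.29 (SE 0.270, edgeR adjusted p = 3.97e-04). It was the 1 initiation gene that passed, and CL-1 was its lowest group apart from the controls. In the opposite direction, ENSCAFG00000013710 was lower in OSW by −1.64 (SE 0.384, edgeR adjusted p = 0.00124), with 24.1, 37.04, 35.9 and 26.3 CPM in OSW. ENSCAFG00000004046 had 40.7, 54.8, 33.9 and 46.1 CPM in OSW and 105 and 112 CPM in CL-1, a difference of −1.31 (SE 0.298, edgeR adjusted p = 9.61e-04). OSW overlapped the controls (30.5 to 34.8 CPM) in this gene, which no other line did. ENSCAFG00000006030 (−1.01) and ENSCAFG00000017159 (−0.90) passed with edgeR adjusted p-values of 0.00143 and 0.00512.

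**Figure D3:**
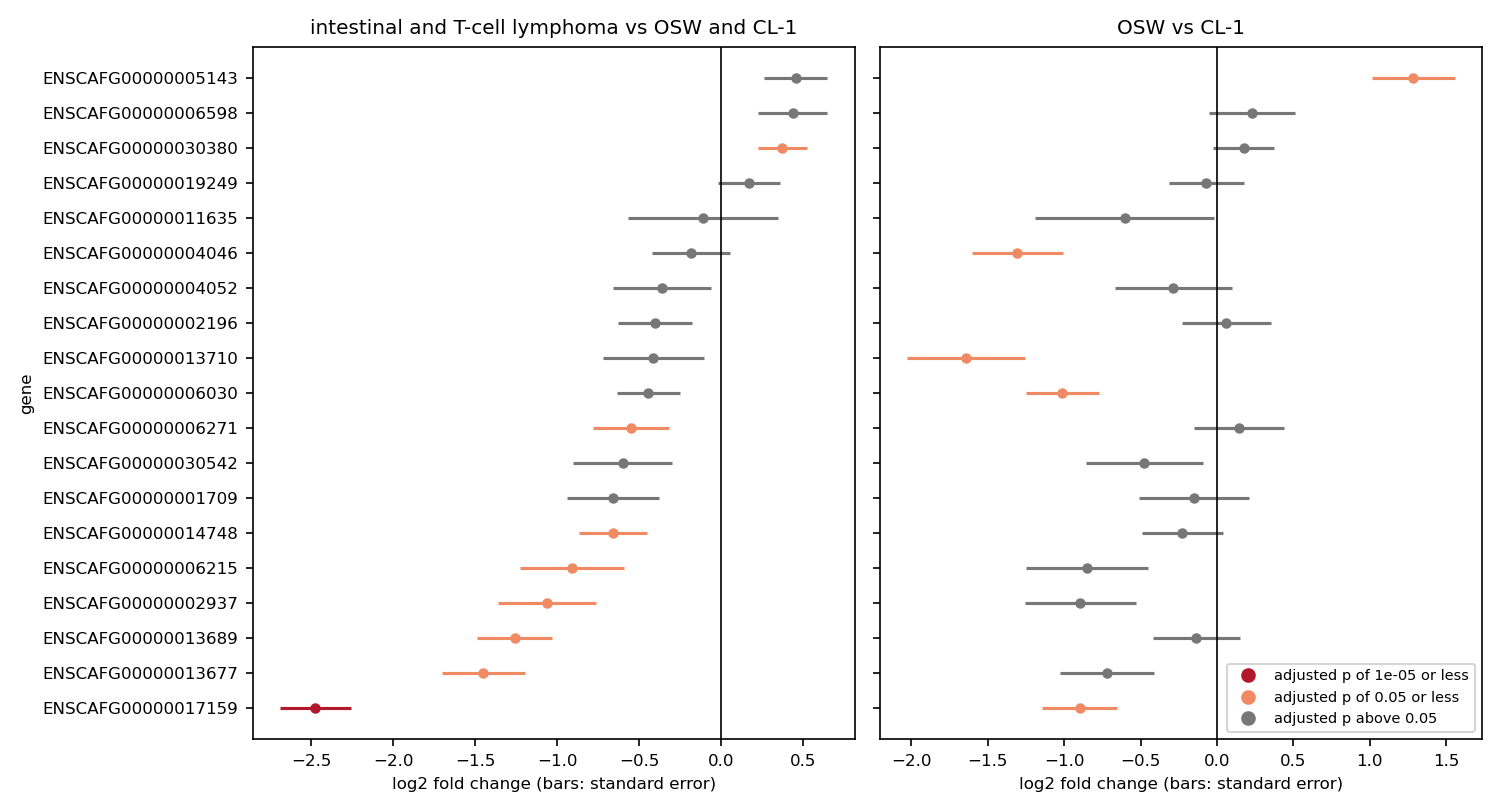
Log2 fold change of each of the 19 members (points) with its standard error (bars) for the 4 intestinal and T-cell lymphomas against OSW and CL-1 (left) and for OSW against CL-1 (right), coloured by the edgeR adjusted p. ENSCAFG00000017159, at −2.47 on the left, is the member past 1e-05, and ENSCAFG00000005143, at 1.29 on the right, is the member at 0.05 or less that is higher in OSW.

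Beside the 12 B-cell lymphomas, the CLBL lines had higher levels of most members, which is a description because both groups helped to choose the list. There were 8 members called higher and none lower, beside 8.32% of all genes higher and 14.2% lower. At an unadjusted p under 0.05, 1 was lower, and DESeq2 made 11 calls, both without a share of all genes. ENSCAFG00000011635 was lower in the lines, by a log2 difference of −1.58 (SE 0.337), and was not called by edgeR. Of the positive differences that of ENSCAFG00000017159 was largest, 1.49 (SE 0.130), followed by ENSCAFG00000006215 with 1.24 (SE 0.203) and ENSCAFG00000006271 with 1.21 (SE 0.147). ENSCAFG00000030380, ENSCAFG00000013710, ENSCAFG00000019249 and ENSCAFG00000006598 lay between −0.05 and 0.15. Between intestinal and T-cell lymphomas and B-cell lymphomas no member was called (background 4.17%), 8 had an unadjusted p under 0.05 (without a share of all genes), and DESeq2 called 0. The largest difference there was that of ENSCAFG00000011635, 1.55 (SE 0.378).

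Within the 12 B-cell lymphomas the members spread less than most genes kept, but about as much as genes at least as high as the lowest member. The median SD of log2 CPM was 0.406 over the members and 0.556 over all genes kept, or 0.425 over the 9944 genes at least as high as the lowest member. Every member varied by more than counting reads would give, by a factor of 1.63 to 6.41 in SD. ENSCAFG00000030380 and ENSCAFG00000006598 were the steadiest, with SDs of 0.221 and 0.243 and a highest value 1.63 and 1.64 times the lowest. ENSCAFG00000011635 varied most, with an SD of 0.910 and a range of 6.13-fold, and ENSCAFG00000006215 came next with 0.553 and 3.35-fold. In the 10 CLBL samples the median SD of the members was 0.328, close to the 0.320 of all genes, and 14 members spread less than in the lymphomas, as did 79.8% of all genes.

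The members varied together from lymphoma to lymphoma. Of their 171 pairs, 27 (15.8%) were correlated over the 12 lymphomas at an adjusted p of 0.05 (two-sided permutation test with 100000 resamples, Benjamini-Hochberg over the 171 pairs), 25 with positive and 2 with negative r. By Spearman's rho 35 pairs passed, 26 of them shared. All 27 kept their sign with an absolute r above 0.5 after the 2 lymphomas farthest from the median were left out. The median r was 0.43 over all member pairs and 0.00 over all pairs of genes kept. Of all gene pairs, 2.26% reached the smallest absolute r that passed, 0.73, in either direction.

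ENSCAFG00000004052 had 8 positive partners past the threshold, ENSCAFG00000001709 and ENSCAFG00000005143 had 7 each, and ENSCAFG00000002196 had 5, all of them initiation genes. The other initiation genes had 4 (ENSCAFG00000014748), 2 (ENSCAFG00000006598) and 0 (ENSCAFG00000013677). Of the remaining members ENSCAFG00000002937 and ENSCAFG00000006030 had 4 each, ENSCAFG00000006215 had 3, ENSCAFG00000013689 and ENSCAFG00000030542 had 2 and ENSCAFG00000004046 and ENSCAFG00000006271 had 1. The highest r was that of ENSCAFG00000004052 and ENSCAFG00000005143, 0.94 (rho 0.95, permutation p = 3e-05, adjusted p = 0.00427, and r 0.92 without the 2 farthest lymphomas). ENSCAFG00000002196 and ENSCAFG00000005143 had r 0.91 (rho 0.93, permutation p = 5e-05, adjusted p = 0.00427, and r 0.86 without the 2 farthest). ENSCAFG00000001709 and ENSCAFG00000004052 had r 0.91 (rho 0.91, permutation p = 0.0001, adjusted p = 0.0057, and r 0.87 without the 2 farthest).

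A small chain of pairs stood outside that group: ENSCAFG00000013689 went with ENSCAFG00000006271 (r 0.76, rho 0.85, permutation p = 0.00152, adjusted p = 0.0204, r 0.83 without the 2 farthest) and with ENSCAFG00000004046 (r 0.74, rho 0.83, permutation p = 0.00529, adjusted p = 0.038, r 0.75 without the 2 farthest). ENSCAFG00000013677, ENSCAFG00000013710, ENSCAFG00000017159, ENSCAFG00000019249 and ENSCAFG00000030380 had no partner past the threshold. ENSCAFG00000017159 had a median r of −0.16 with the others.

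ENSCAFG00000011635 ran against the other members. Its r was below 0 with 16 of 18 (median −0.49), and 2 of these passed: ENSCAFG00000006598 (r −0.84, rho −0.85, permutation p = 0.00156, adjusted p = 0.0204, r −0.77 without the 2 farthest) and ENSCAFG00000002196 (r −0.75, rho −0.73, permutation p = 0.0055, adjusted p = 0.038, r −0.76 without the 2 farthest). In the 10 CLBL samples, where it rests on 2 to 20 reads, its r was below 0 with 5 of the 18 (median 0.19).

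**Figure D4:**
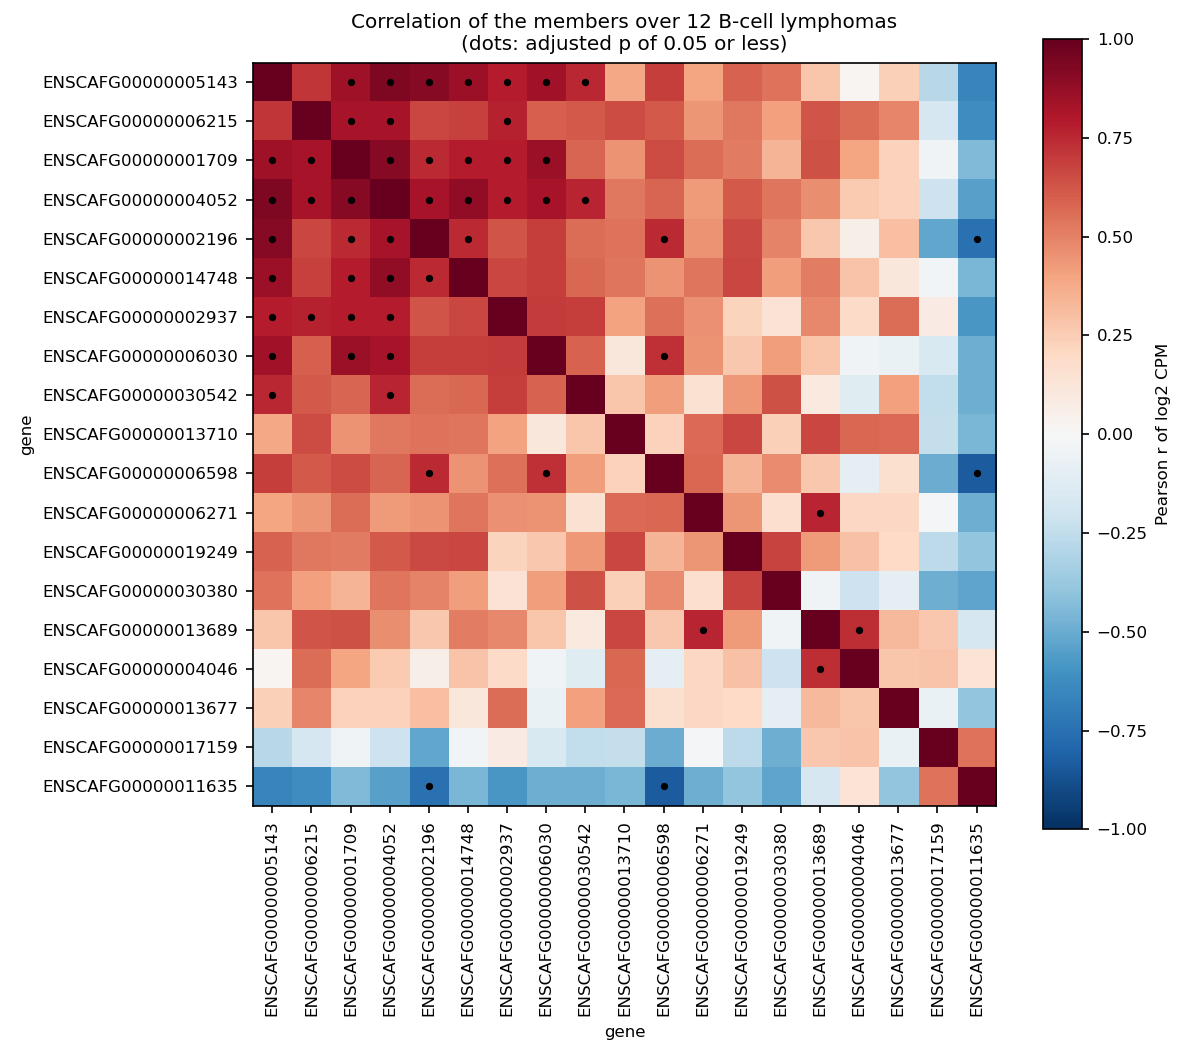
Pearson r of log2 CPM over the 12 B-cell lymphomas for each pair of the 19 members, ordered by median r, with dots on the 27 pairs at an adjusted p of 0.05 or less. Red fills the upper left block around ENSCAFG00000005143, ENSCAFG00000001709 and ENSCAFG00000004052, and the row of ENSCAFG00000011635 is mostly blue (median r −0.49).

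The lymphomas differed in the level of the members as a whole. Measured by the mean z-score of the 18 members other than ENSCAFG00000011635, replicates 2, 12, 10 and 5 were highest, at 1.00, 0.82, 0.75 and 0.67. In these 4 lymphomas 16 to 18 of the 18 members were above their median. The other 8 ranged from −0.94 (replicate 1) to 0.13 (replicate 7) and had 1 to 9 members above the median. ENSCAFG00000011635 had 5.15, 5.82, 3.34 and 3.70 CPM in replicates 2, 12, 10 and 5, and 19.5 CPM in replicate 1. Over the 8 lower lymphomas alone 0 pairs passed by the permutation test with Benjamini-Hochberg adjustment, 15 had an unadjusted p under 0.05 and the median r was 0.13. These 8 were picked by the level of the same genes, which narrows their range, so the values are a description. Leaving out replicate 1, 2, 5 or 12 alone left 17, 17, 16 or 15 pairs. The mean z-score had a Pearson r of 0.12 with the reads on genes, −0.26 with the share of reads outside genes and −0.44 with the share on several genes (n = 12, as a description), and their part in the result was not tested.

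**Figure D5:**
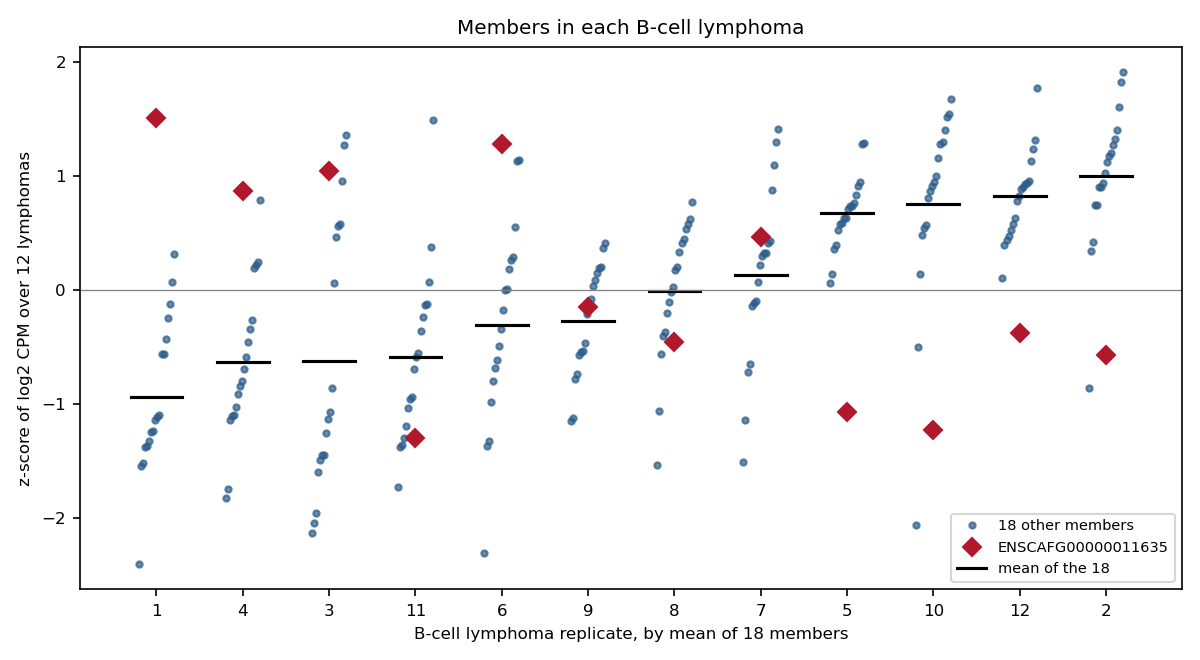
Z-scores of log2 CPM over the 12 B-cell lymphomas for the 18 other members (points, sorted within each lymphoma), their mean (bars) and ENSCAFG00000011635 (diamonds), with lymphomas ordered by the mean. The mean climbs from −0.94 in replicate 1 to 1.00 in replicate 2, and the diamonds tend to lie high on the left and low on the right.

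Most members also varied together over the CLBL samples. The median r over the member pairs was 0.82 in these 10 samples, where that of all gene pairs was 0.00. All 25 pairs that were positively correlated in the lymphomas had a positive r (median 0.93). A positive r was common to most member pairs there, and pairs not past the threshold in the lymphomas had a median of 0.79. ENSCAFG00000030380 stood apart, with r below 0 with 14 of 18 members there (median −0.16). CLBL-1 replicates 1 and 3 and CLBL-1M replicate 2 were below the median in 17 of 18 members each and held the lowest value in 17 of 18 between them. These were also the 3 CLBL samples with the fewest reads on genes, 2474777, 2319126 and 1980761 against 2684136 to 3414487 in the other 7, and the part of depth in the result was not tested. CLBL-1M replicate 4 was the highest in 11 of 18 members. Without these 3 samples, an alternative chosen after seeing the data, 19 members were called over both lines, 18 higher and 1 lower.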

How the data were processed

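RNA of 37 samples was measured by sequencing. Per the labels and the study's methods, the authors mapped 100-bp paired-end poly-A reads with BWA to CanFam3.1, removed duplicates with Picard and SAMtools and counted reads on Ensembl release 85 genes with HTSeq 0.6.1; strandedness is not stated, and overlapping genes may share or lose reads. The deposited values are raw counts. Of 32704 genes, 25270 had a count and 15162 had a highest CPM above the 40th percentile. edgeR 4.0.16 (R 4.3.3, TMM) fitted 1 quasi-likelihood model of 8 groups, with adjusted p over all genes and the threshold 1e-05. SE is the absolute log2 fold change over the root of F. Log2 CPM used a prior count of 0.5. Correlations used NumPy 2.4.6, and DESeq2 1.42.0 was an alternative. On simulated counts with 200 genes changed 8-fold among 15162, 69% were recovered for intestinal and T-cell lymphoma against OSW and CL-1 and 47.5% for OSW against CL-1 at 1e-05, with 0 false calls. At 0.05, 90% and 80% were recovered, with 8 and 4 unchanged genes called. All member differences in these comparisons were smaller than 8-fold, so these shares do not carry over to them.

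Depth per sample was 1962722 to 4863730 reads on genes, and 68.0 to 82.9% of reads lay outside genes. Samples were grouped by title. The members, lists and tests were chosen with earlier results of these data known. All 19 members are named, and of genes that are no members the 2 most similar in the B-cell lymphomas with a mean of at least 10 CPM and, from the second replication list, the 2 that rose and the 2 that fell most among those called. That second list, 16 genes from the study's own annotation, was set up after the files were seen, because the planned lists of gene symbols (pathway, licensing, nucleotide supply, mitosis, cell type markers) could not be matched to Ensembl identifiers with the tables used here. No sequences or promoters were matched either. Lengths were not used, so levels were compared between genes only as cutoffs that choose the genes kept or set beside the members. Alternatives were RLE size factors, filters, DESeq2, a threshold of 0.05, fewer samples in the fit, a replicate block, control 4 apart, exchanged CLBL names and samples left out.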

Additional observations from a re-analysis of the deposited data

Results flagged for a closer look

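Within groups of 4 or 5 samples, 95 combinations of a member and a group were examined for a sample far from the others by Dixon's criterion, and 3 had one, where chance gives about 1 in 20. All 3 were CLBL-1M replicate 2, the CLBL sample with the fewest reads. It had 231 CPM of ENSCAFG00000006030 (other CLBL-1M samples 366 to 412), 141 CPM of ENSCAFG00000006215 (others 285 to 309) and 52.5 CPM of ENSCAFG00000013689 (others 83.4 to 90.4). Beside these, ENSCAFG00000017159 differed between the intestinal and T-cell lymphomas and the lines OSW and CL-1 by a log2 fold change of −2.47, lower in 4 of 4 lymphomas than in all 6 line samples (SE 0.215, edgeR adjusted p = 1.41e-10).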

How the results depend on the processing

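The counts of members called against the controls depended on the processing far more than the fold changes did. In the order B-cell lymphoma, intestinal and T-cell lymphoma, then the lines CLBL-1, CLBL-1M, OSW, CL-1 and GL-1, fitting only the compared samples gave 1, 0, 9, 7, 8, 0 and 0 calls, and comparing lymphomas with controls 1 to 3 and lines with control 4 gave 5, 5, 2, 2, 1, 1 and 0 calls (2 over both CLBL lines), where a group against 1 control borrows its spread from the other groups. At an adjusted p of 0.05 there were 18, 14, 17 and 18 calls in B-cell lymphoma, intestinal and T-cell lymphoma, GL-1 and CL-1, beside 46.9, 37.4, 27.8 and 52.8% of all genes called. Between tumour groups that threshold gave 8 for intestinal and T-cell lymphoma against OSW and CL-1, 5 for OSW against CL-1, 15 for CLBL against B-cell lymphoma, 4 for intestinal and T-cell against B-cell lymphoma and 5 for OSW against CLBL, beside 48, 30.8, 64.3, 30.9 and 43.3% of all genes. For intestinal and T-cell lymphoma against OSW and CL-1 the compared samples alone gave 0 calls and DESeq2 3, and DESeq2 gave 1 for OSW against CL-1. No member named with a test reversed its direction, and ENSCAFG00000017159 lost its call when only the compared samples were fitted.

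Leaving out single controls gave 3 to 6 calls in B-cell lymphoma and 3 to 4 in GL-1. Leaving out single samples of the group or the controls gave 4 to 9 in intestinal and T-cell lymphoma, 10 to 16 in CLBL-1, 12 to 17 in CLBL-1M, 15 to 19 over both CLBL lines, 6 to 10 in OSW and 4 to 10 in CL-1. It gave 1 to 2 calls for intestinal and T-cell lymphoma against OSW and CL-1, 6 to 9 for CLBL against B-cell lymphoma (CLBL samples left out), and 15 to 37 correlated pairs (B-cell lymphomas left out). Within the 8 lymphomas with the lower mean z-scores, an alternative chosen after seeing the data, 0 pairs passed with a median r of 0.13. The causes were not tested, and fits without a sample also hold fewer samples.

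With the replicate number as a block, calls fell to 0, 2, 0, 7 and 7 in B-cell lymphoma, intestinal and T-cell lymphoma, GL-1, OSW and CL-1 and to 2 for CLBL against B-cell lymphoma, and no other count moved by over 1.5 times. Samples with the same number in different groups had a mean correlation of −0.007 (n = 76 pairs), against 0.0012 for other numbers (n = 449), so the numbers do not pair the samples. Depth limits ENSCAFG00000011635 most, whose CLBL values rest on 2 to 20 reads.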

Other observations

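The 16 further genes that the study placed under DNA replication terms moved in both directions. Over both CLBL lines 7 were called higher (8.96% of all genes) and 2 lower (17.4%), in B-cell lymphomas 5 higher (2.38%) and in intestinal and T-cell lymphomas 4 higher (1.33%). The largest log2 fold changes over both CLBL lines were 3.63 (SE 0.319) for ENSCAFG00000016106 and 3.39 (SE 0.346) for ENSCAFG00000004754. The genes called lower were ENSCAFG00000014201 at −2.42 (SE 0.375) and ENSCAFG00000003942 at −2.18 (SE 0.205). The list was chosen partly on these samples, so the counts are a description. In the comparisons that took no part in the choice, 1 of the 16 was called lower in intestinal and T-cell lymphomas than in OSW and CL-1 (0.943% of all genes), and 2 were called lower in OSW than in CL-1 (1.83%; edgeR, adjusted p of 1e-05).

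Among 9671 genes that are no members and had a mean of at least 10 CPM in the B-cell lymphomas, 53 (0.548%) had a Pearson r of 0.8 or more with the mean z-score of the 19 members over the 12 lymphomas. The median r of all genes compared was 0.01. The highest were ENSCAFG00000019070 (r 0.93) and ENSCAFG00000003744 (r 0.92), and 1 of the 10 highest was in the second replication list. These values are given as a description over samples that share the 4 high lymphomas.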
